A study of Bos taurus with 6 samples.

Results

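Transcripts of the aminoacyl-tRNA synthetases, the enzymes that load amino acids onto their tRNAs, were measured in 6 single bovine morulae. Members were taken by gene symbol: the cytosolic synthetases, their mitochondrial counterparts with a 2 at the end of the name, and the scaffold proteins AIMP1 and AIMP2. Of 39 symbols written out, 36 were found, namely 19 cytosolic, 15 mitochondrial and 2 scaffold genes, among 13185 symbols kept in the whole data set. The rule itself uses symbols, not measured values. VARS, EARS2 and PARS2 were not analysed here.

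Most synthetases recognise 1 amino acid and join it, with ATP, to the tRNAs that read its codons, so translation depends on this family. In animals, cytosolic translation and translation inside mitochondria use largely separate sets of these enzymes, both encoded in the nucleus, while the genes GARS and KARS give protein forms for both places. Several cytosolic synthetases sit together with the scaffold proteins AIMP1, AIMP2 and EEF1E1 in the multisynthetase complex. Expression of many synthetase genes is raised by ATF4, the transcription factor of the amino acid and stress response.

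The study treated embryos with FIDAS-5. This compound inhibits MAT2A, which turns methionine and ATP into S-adenosylmethionine. The MAT2A-inhibited group held 3 morulae cultured in 20 µM FIDAS-5, and the Control group held 3 morulae cultured in 0.1% DMSO, its solvent. All embryos came from in vitro fertilization, grew in semi-defined medium with serum albumin at 5% oxygen, entered treatment with 8 to 16 cells at 72 h after insemination and were taken at 144 h, on day 6. The labels name no strain, parents or sex, and no DMSO content for the inhibited group. Each library was made from 1 whole embryo. Whether the embryos of a group were cultured apart is not in the labels. The p-values therefore speak only to spread among these embryos, which may be technical.

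Depth, recovered from the deposited values, was 46400000 to 57700000 fragments in MAT2A-inhibited morulae and 53400000 to 59900000 fragments in Control morulae. MAT2A itself had 91.4, 53.2 and 70.5 FPKM in MAT2A-inhibited morulae and 74.8, 79.2 and 74.2 FPKM in Control morulae (limma log2 fold change -0.12, adjusted p = 0.914), where FPKM are fragments scaled to transcript length and library size. An inhibitor of the protein need not alter its transcript, so this value does not check the labels. Of the embryo markers, POU5F1 was at 255 to 376 FPKM in MAT2A-inhibited morulae and 312 to 431 FPKM in Control morulae. The groups did not overlap for DPPA3 (453.5 to 574.5 FPKM in MAT2A-inhibited and 661 to 881 FPKM in Control morulae), NANOG (1.17 to 1.88 and 2.54 to 20.3 FPKM) and SOX2 (45.2 to 50.8 and 27.6 to 41.5 FPKM), each with a limma adjusted p of 0.701 or above. Of 6 cumulus cell markers, SERPINE2 was at 41.0 to 80.2 FPKM in MAT2A-inhibited morulae and 53.9 to 121.8 FPKM in Control morulae. COL1A2 was at 0.529 to 1.06 FPKM in MAT2A-inhibited morulae and 0.231 to 4.29 FPKM in Control morulae, and STAR was at 1.16 to 2.19 FPKM over all 6. DCN reached 11.0 FPKM and LUM 4.81 FPKM in Control morula 2, and VIM did not exceed 0.501 FPKM. KRT8 and KRT18, keratins of the outer cells, were highest in Control morula 3, at 400.5 and 363.4 FPKM. The Y-linked EIF1AY had 0, 38.2 and 106.9 FPKM in MAT2A-inhibited morulae and was listed at 0 in all 3 Control morulae. Whether these differences between embryos bear on the synthetase values was not tested, other than by leaving libraries out.

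In both groups, cytosolic synthetase transcripts were well above mitochondrial ones. Summed over 19 genes, the cytosolic synthetases had 1188, 1647 and 1126 FPKM in MAT2A-inhibited morulae and 1240, 1389 and 1414 FPKM in Control morulae. Summed over 14 genes with a row in every library, the mitochondrial synthetases had 151.2, 121.8 and 146.0 FPKM in MAT2A-inhibited morulae and 140.2, 132.0 and 196.2 FPKM in Control morulae. The groups overlapped in both sums. Mitochondrial genes took 11.3%, 6.89% and 11.5% of the FPKM in these 2 sums in MAT2A-inhibited morulae and 10.2%, 8.68% and 12.2% in Control morulae, or 9.88% ± 2.60 and 10.3% ± 1.76 (SD, n = 3 each). GARS and KARS, which serve both places, were counted as cytosolic. HARS2, merged with a neighbour in 1 library, was left out. The lowest share belonged to MAT2A-inhibited morula 2, which also had the highest cytosolic sum, with KARS at 360.5 FPKM in it. Leaving out that morula turned the difference of the mean shares, MAT2A-inhibited minus Control, to 1.04 percentage points, against -0.456 with all 6. Leaving out Control morula 3 turned it to 0.467, so its direction changed when either of these embryos was left out.

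The median cytosolic gene had 33.4, 30.2 and 32.8 FPKM in MAT2A-inhibited morulae and 36.1, 35.1 and 42.0 FPKM in Control morulae, a separation without overlap. This median is a summary over the members, fell on a different gene in each embryo and was given no test. Gene by gene, the median log2 fold change of the cytosolic synthetases was -0.064. The median mitochondrial gene had 7.77, 5.54 and 7.04 FPKM in MAT2A-inhibited morulae, against 6.84, 5.94 and 6.88 FPKM in Control morulae, with overlap. In a whole embryo, fewer cells that express a gene and less of its RNA per cell cannot be told apart.

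**Figure D1:**
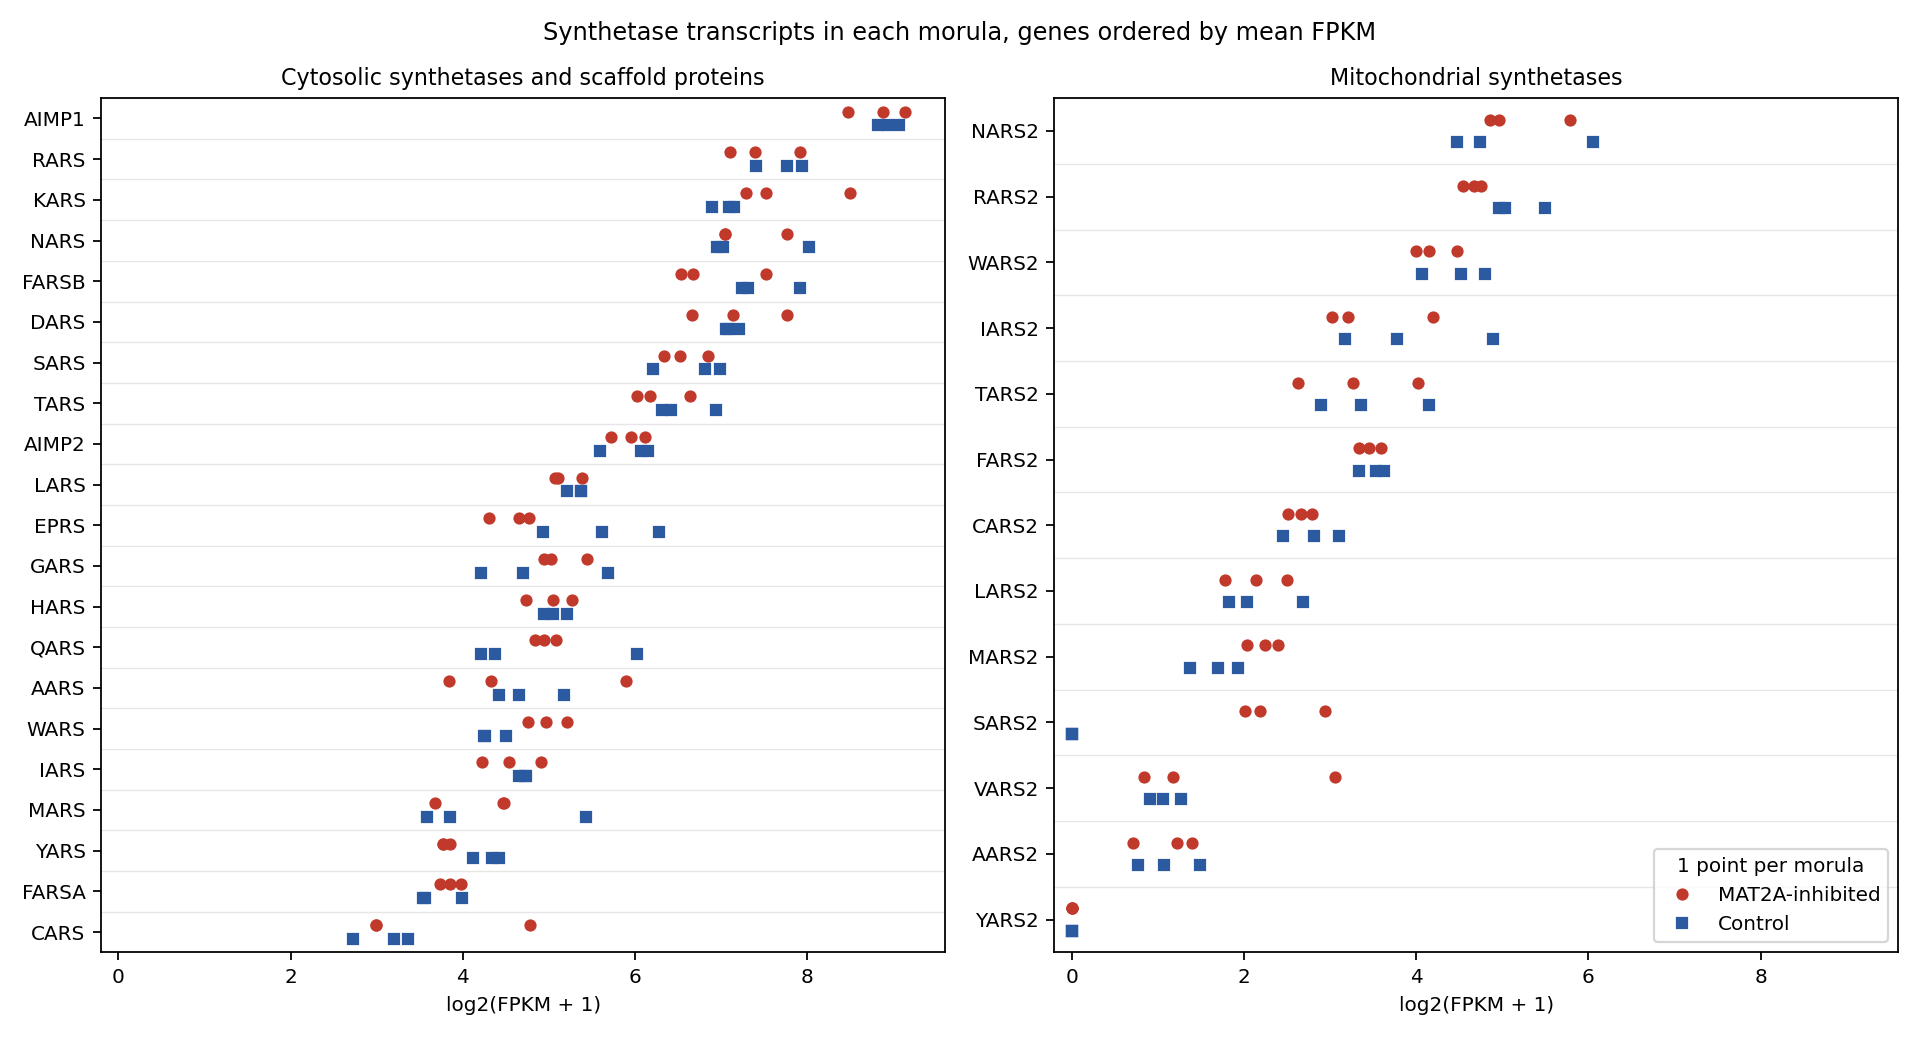
FPKM of the synthetase and scaffold genes on a log2(FPKM + 1) axis, with 1 point per morula, MAT2A-inhibited (circles) above Control (squares), genes ordered by their mean. Most genes show overlapping groups, RARS leads the cytosolic enzymes at a mean of 195.4 FPKM, and YARS2 sits at 0 in all 6 morulae.

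The cytosolic genes spanned more than an order of magnitude. RARS, the arginine enzyme of the multisynthetase complex, had the highest mean among them. It had 136.3, 240.9 and 166.8 FPKM in MAT2A-inhibited morulae and 215.5, 245.1 and 167.9 FPKM in Control morulae. KARS (lysine) and NARS (asparagine) followed at means of 181.7 and 164.7 FPKM over the 6 embryos. NARS had 216.9, 130.5 and 130.8 FPKM in MAT2A-inhibited morulae and 128.9, 122.5 and 258.5 FPKM in Control morulae, so 1 embryo of each group stood high. Together the 3 highest genes of a library made up 40.4% to 49.7% of its cytosolic sum.

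At the low end, CARS, the cysteine enzyme, had 6.93, 26.5 and 6.93 FPKM in MAT2A-inhibited morulae and 8.18, 5.60 and 9.26 FPKM in Control morulae. MAT2A-inhibited morula 2 alone was high, and the other 5 values lay between 5.60 and 9.26 FPKM. YARS (tyrosine) and FARSA (a phenylalanine subunit) had means of 15.8 and 12.8 FPKM. Of 18 neighbours in the cytosolic order, only 2 kept their order in all 6 embryos, DARS above SARS and TARS above LARS. Among the 5 highest, RARS, KARS, NARS, FARSB and DARS, no neighbours kept their order, although RARS was above DARS in all 6 embryos.

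Phenylalanyl-tRNA synthetase of the cytosol is built from equal numbers of alpha subunits (FARSA) and beta subunits (FARSB), yet their transcripts were far apart. FARSA had 13.4, 12.3 and 14.7 FPKM in MAT2A-inhibited morulae and 10.8, 14.9 and 10.6 FPKM in Control morulae. FARSB had 91.4, 183.2 and 101.2 FPKM in MAT2A-inhibited morulae and 150.0, 240.4 and 158.1 FPKM in Control morulae. FARSB was thus above FARSA in every embryo, by 6.80, 14.9 and 6.88 times in MAT2A-inhibited morulae and by 13.9, 16.1 and 14.9 times in Control morulae, on the length-corrected FPKM scale. The ratios overlapped between the groups because of MAT2A-inhibited morula 2.

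The scaffold proteins showed a similar gap. AIMP1, which binds RARS within the complex, had 355.0, 561.6 and 471.1 FPKM in MAT2A-inhibited morulae and 486.7, 535.7 and 450.5 FPKM in Control morulae, above every synthetase in this data set. AIMP2, the core scaffold, had 51.5, 68.0 and 61.1 FPKM in MAT2A-inhibited morulae and 66.2, 69.9 and 47.3 FPKM in Control morulae. AIMP1 exceeded AIMP2 by 7.62 ± 0.689 times in MAT2A-inhibited morulae and 8.18 ± 1.17 times in Control morulae (SD, n = 3 each), a difference within the spread. In every morula the AIMP2 value lies above its own Cufflinks confidence bounds, so these ratios rest on such values. AIMP2 overlaps EIF2AK1 in the genome, and the sources used here do not state that strand was used, so reads of the 2 genes may not be separable. EIF2AK1 itself had 45.4, 8.19 and 7.79 FPKM in MAT2A-inhibited morulae and 6.73, 4.20 and 4.83 FPKM in Control morulae.

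Among the mitochondrial enzymes, NARS2 (asparagine), RARS2 (arginine) and WARS2 (tryptophan) were highest. NARS2 had 54.1, 28.1 and 30.1 FPKM in MAT2A-inhibited morulae and 21.2, 25.7 and 65.6 FPKM in Control morulae. Its high values were in MAT2A-inhibited morula 1 and Control morula 3, the same embryos in which NARS was high. WARS2 had 16.7, 21.2 and 15.0 FPKM in MAT2A-inhibited morulae and 15.8, 26.8 and 22.0 FPKM in Control morulae. The other mitochondrial genes with a value above 0 in all 6 embryos ranged from a mean of 13.7 FPKM for IARS2 (isoleucine) to 1.21 FPKM for AARS2 (alanine). Order was kept in all 6 embryos by 3 of 13 neighbours, RARS2 above WARS2, CARS2 above LARS2 and AARS2 above YARS2. The last of these was fixed in advance, since YARS2 was listed at 0 in all 6.

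VARS2, the mitochondrial valine enzyme, had 7.30, 0.796 and 1.26 FPKM in MAT2A-inhibited morulae and 1.09, 0.881 and 1.42 FPKM in Control morulae. MAT2A-inhibited morula 1 stood alone, 5.15 times above the next embryo. AARS2 had 0.643, 1.34 and 1.64 FPKM in MAT2A-inhibited morulae and 0.713, 1.81 and 1.11 FPKM in Control morulae. YARS2, the tyrosine enzyme, was listed at 0 in all 6 and lies within the span of DNM1L, a mitochondrial fission gene at 46.1 to 61.9 FPKM. Of 4874 genes that reach 10 FPKM in some library, 130 were listed at 0 in another. Whether a value of exactly 0 is a failed estimate or a true absence was not tested. HARS2, the histidine enzyme, had 29.0, 13.8 and 8.30 FPKM in MAT2A-inhibited morulae and 8.28 and 9.78 FPKM in Control morulae 2 and 3. In Control morula 1 it was merged with its neighbour ZMAT2, so HARS2 was not tested.

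Setting the cytosolic gene beside the mitochondrial gene of the same amino acid gave 13 pairs over 12 amino acids, with FARS2 set against both FARSA and FARSB. The cytosolic gene was higher in all 6 embryos for 10 of the 13. The widest ratio present in all 6 embryos was AARS over AARS2, at 90.8, 14.3 and 8.10 in MAT2A-inhibited morulae, against 28.7, 19.5 and 21.8 in Control morulae. The exceptions were the isoleucine, cysteine and tryptophan pairs. IARS was above IARS2 in 5 embryos, CARS above CARS2 in 5, and WARS above WARS2 in 4.

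Of 12 pairs with a ratio in every embryo, 1 did not overlap between the groups, that of tryptophan. This is 8.33% of the pairs, below the 13.4% of single genes without overlap. The ratio of WARS to WARS2 came to 1.56, 1.42 and 2.40 in MAT2A-inhibited morulae, against 1.37, 0.669 and 0.825 in Control morulae. In MAT2A-inhibited morulae the cytosolic gene was the higher one in every embryo, while 2 of 3 Control morulae had more WARS2. The log2 ratio differed by 0.94, MAT2A-inhibited minus Control, with an exact two-sided permutation p of 0.1, the smallest that 3 against 3 can give, before any adjustment over the 12 pairs.

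**Figure D2:**
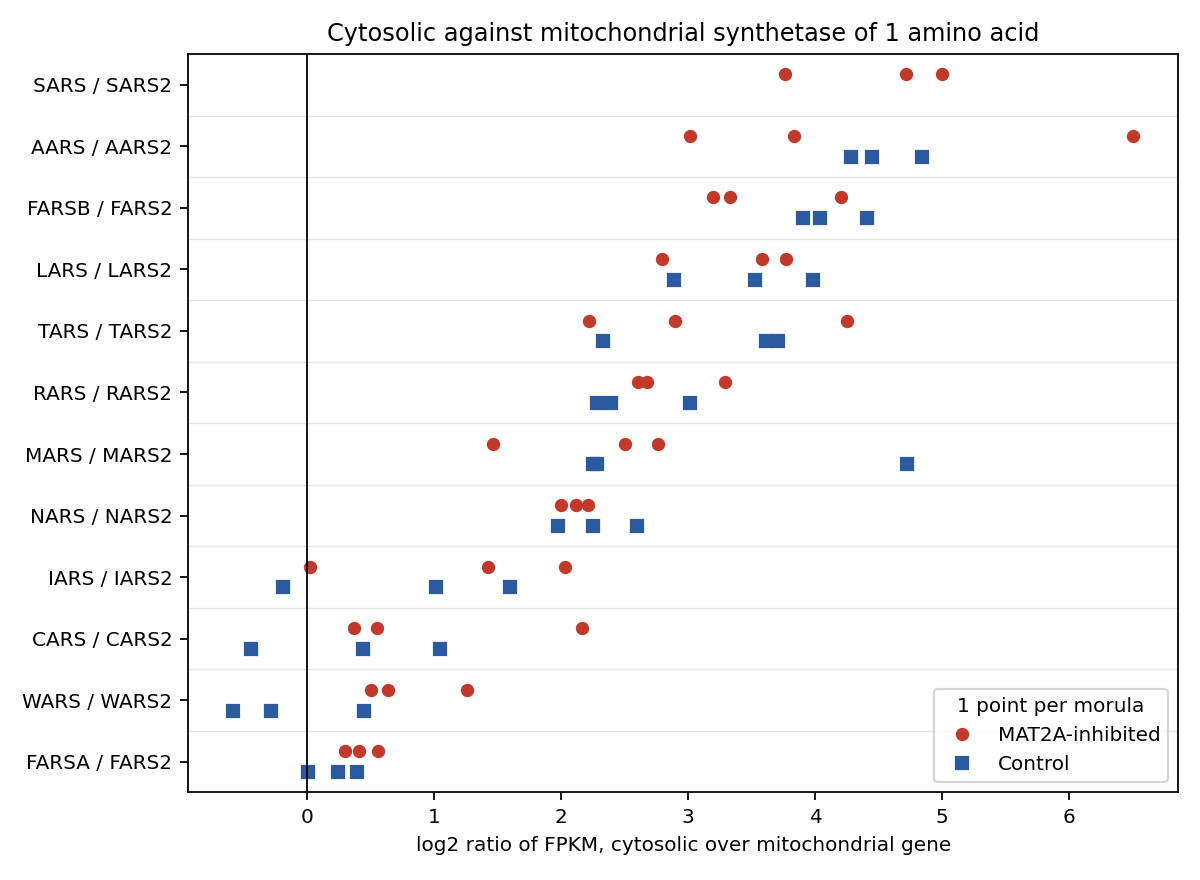
Ratio of the cytosolic to the mitochondrial gene of the same amino acid, for 12 of the pairs, on a log2 axis, with 1 point per morula, MAT2A-inhibited (circles) above Control (squares), and a line at equal levels. The ratios overlap between the groups except for WARS over WARS2, and SARS over SARS2 has no Control points because SARS2 was listed at 0 there.

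The main comparison asked whether synthetase transcripts differed between MAT2A-inhibited and Control embryos. No synthetase or scaffold gene passed an adjusted p of 0.05 (limma on log2(FPKM + 1), Benjamini-Hochberg over 7319 genes), where 3 genes in all passed, or 0.0410% of those tested. Of 36 members found, 34 passed the filter of at least 1 FPKM in at least 3 libraries, and YARS2 and HARS2 did not enter. At an unadjusted p of 0.05, 2 members were higher (SARS2 and WARS) and 1 lower (EPRS), or 8.82% of 34 against 6.64% of all genes tested, of which 3.70% were higher and 2.94% lower. SARS2 passed the filter only through the group in which it was present, and without it the share was 6.06% of 33, close to the background.

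The groups did not overlap for 7 of the 34 members, or 20.6%, against 13.4% of all genes tested. SARS2, WARS, KARS and MARS2 were higher, against a background of 8.27% in that direction, and EPRS, RARS2 and YARS were lower, against 5.18%. Without SARS2, 6 of 33 members, or 18.2%, did not overlap. The other 27 members overlapped, with log2 fold changes from -0.58 for FARSB to 0.61 for VARS2 and no unadjusted p below 0.110. Fold changes are MAT2A-inhibited over Control and are smaller than the true ratio for genes at low FPKM.

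**Figure D3:**
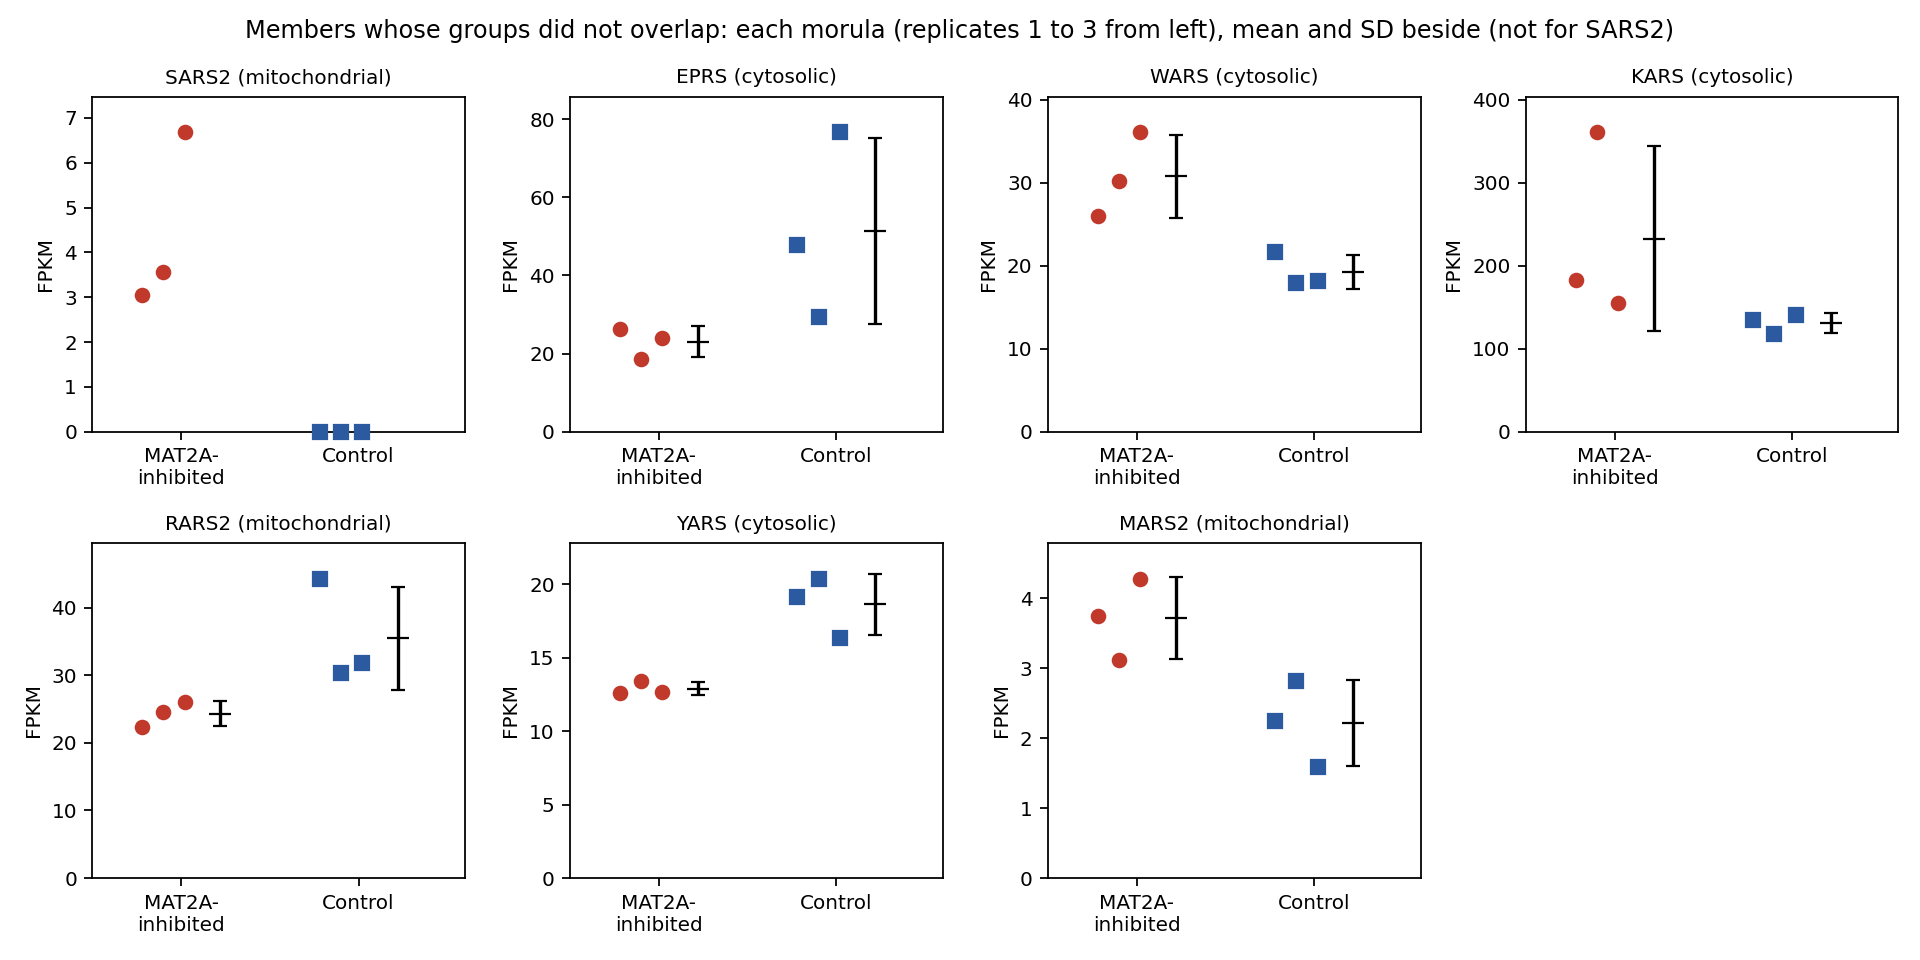
FPKM of the 7 members whose groups did not overlap, in each MAT2A-inhibited morula (circles, left) and each Control morula (squares, right), with the mean and SD beside the points except for SARS2. SARS2, WARS, KARS and MARS2 are higher and EPRS, RARS2 and YARS lower in the MAT2A-inhibited group, with adjusted p-values of 0.708 and above for the 6 other than SARS2.

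SARS2, which charges mitochondrial serine tRNAs (bosTau8 chromosome 18, 48896561 to 48905599), had 3.05, 3.56 and 6.68 FPKM in MAT2A-inhibited morulae and was listed at 0 in all 3 Control morulae. Every MAT2A-inhibited embryo was therefore above every Control embryo, but no fold change is given against a group at 0. Since SARS2 entered the test only through the group in which it was present, no p is given for it. Its neighbour MRPS12, a mitochondrial ribosomal protein gene, had 75.9, 75.8 and 75.5 FPKM in MAT2A-inhibited morulae and 100.5, 65.7 and 70.3 FPKM in Control morulae. Whether the Control zeros are failed estimates was not tested. In the whole data set 4 genes were listed at 0 in all Control morulae and above 1 FPKM in all MAT2A-inhibited ones, and 2 showed the opposite. The cytosolic partner SARS overlapped between the groups, at 79.9, 113.9 and 90.7 FPKM in MAT2A-inhibited morulae and 111.0, 125.6 and 73.0 FPKM in Control morulae.

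EPRS joins both glutamate and proline to their tRNAs and belongs to the multisynthetase complex (chromosome 16, 24171139 to 24236388). It had 26.3, 18.7 and 24.1 FPKM in MAT2A-inhibited morulae and 47.8, 29.5 and 76.6 FPKM in Control morulae. All MAT2A-inhibited embryos were lower than all Control embryos, and Control morula 3 was by far the highest. Means were 23.0 ± 3.93 FPKM in MAT2A-inhibited morulae and 51.3 ± 23.8 FPKM in Control morulae (SD, n = 3 each). The log2 fold change was -1.03 ± 0.36 (SE), with an unadjusted p of 0.0227 and an adjusted p of 0.708. Without Control morula 3 it was -0.70 with an unadjusted p of 0.0693, and p was also above 0.05 without Control morula 1 (0.0539) and without MAT2A-inhibited morula 2 (0.0716). The EPRS value of Control morula 3 lies above its own Cufflinks confidence bounds of 57.8 to 64.2 FPKM. That of Control morula 1 also lies above its bounds, of 42.0 to 46.2 FPKM. The groups stayed apart on the lower bounds as well.

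WARS, the cytosolic tryptophan enzyme, which interferon induces in human cells (chromosome 21, 66888329 to 66917510), had 26.0, 30.2 and 36.1 FPKM in MAT2A-inhibited morulae and 21.6, 18.0 and 18.2 FPKM in Control morulae. The groups were apart with little spread in either, at means of 30.8 ± 5.04 FPKM in MAT2A-inhibited morulae and 19.2 ± 2.07 FPKM in Control morulae (SD, n = 3 each). Its log2 fold change was 0.64 ± 0.24 (SE), with an unadjusted p of 0.0298 and an adjusted p of 0.746. Leaving out each embryo in turn gave log2 fold changes of 0.52 to 0.75 and unadjusted p-values of 0.0301 to 0.108. The WARS value of MAT2A-inhibited morula 3, its highest, lies above its own confidence bounds of 32.8 to 35.3 FPKM.

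KARS, which charges lysine tRNAs in the cytosol and in mitochondria (chromosome 18, 2962721 to 2976537), had 182.3, 360.5 and 154.6 FPKM in MAT2A-inhibited morulae and 134.8, 117.4 and 140.4 FPKM in Control morulae. MAT2A-inhibited morula 2 stood far above the rest, and the other 2 MAT2A-inhibited embryos were just above the Control range. The log2 fold change was 0.73 ± 0.32 (SE), with an unadjusted p of 0.0547 and an adjusted p of 0.746. Without MAT2A-inhibited morula 2 it was 0.36. The KARS value of that morula lies above its own confidence bounds of 272.8 to 289.5 FPKM. Those of MAT2A-inhibited morula 1 and Control morula 1 also lie above their bounds.

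RARS2, the mitochondrial arginine enzyme (chromosome 9, 63225447 to 63299358), had 22.3, 24.6 and 26.0 FPKM in MAT2A-inhibited morulae and 44.3, 30.3 and 31.9 FPKM in Control morulae. YARS, the cytosolic tyrosine enzyme (chromosome 2, 121680033 to 121712370), had 12.6, 13.4 and 12.6 FPKM in MAT2A-inhibited morulae and 19.2, 20.4 and 16.3 FPKM in Control morulae. Both were lower in every MAT2A-inhibited embryo, and YARS had the smallest spread of all members, a within-group SD of 0.115 on the log2 scale. The log2 fold change was -0.51 ± 0.24 (SE) for RARS2 and -0.49 ± 0.24 (SE) for YARS, each with an adjusted p of 0.7495. RARS2 lies above its own confidence bounds in MAT2A-inhibited morulae 1 and 3 and in Control morula 2.

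The methionine enzymes are the members nearest to the inhibited step, since MAT2A and methionyl-tRNA synthetases draw on the same amino acid. MARS2, the mitochondrial form (chromosome 2, 86593547 to 86596387), had 3.75, 3.11 and 4.28 FPKM in MAT2A-inhibited morulae and 2.25, 2.82 and 1.59 FPKM in Control morulae. All MAT2A-inhibited embryos were higher, by a log2 fold change of 0.56 ± 0.30 (SE, unadjusted p = 0.104, adjusted p = 0.772). MARS, the cytosolic form, had 21.3, 21.2 and 11.8 FPKM in MAT2A-inhibited morulae and 11.0, 13.5 and 42.0 FPKM in Control morulae. Its groups overlapped and Control morula 3 was highest, with a log2 fold change of -0.078 ± 0.51 (SE). MARS overlaps DDIT3, a stress-response gene with 26.1, 25.2 and 67.6 FPKM in MAT2A-inhibited morulae and 47.0, 80.0 and 70.8 FPKM in Control morulae.

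**Figure D4:**
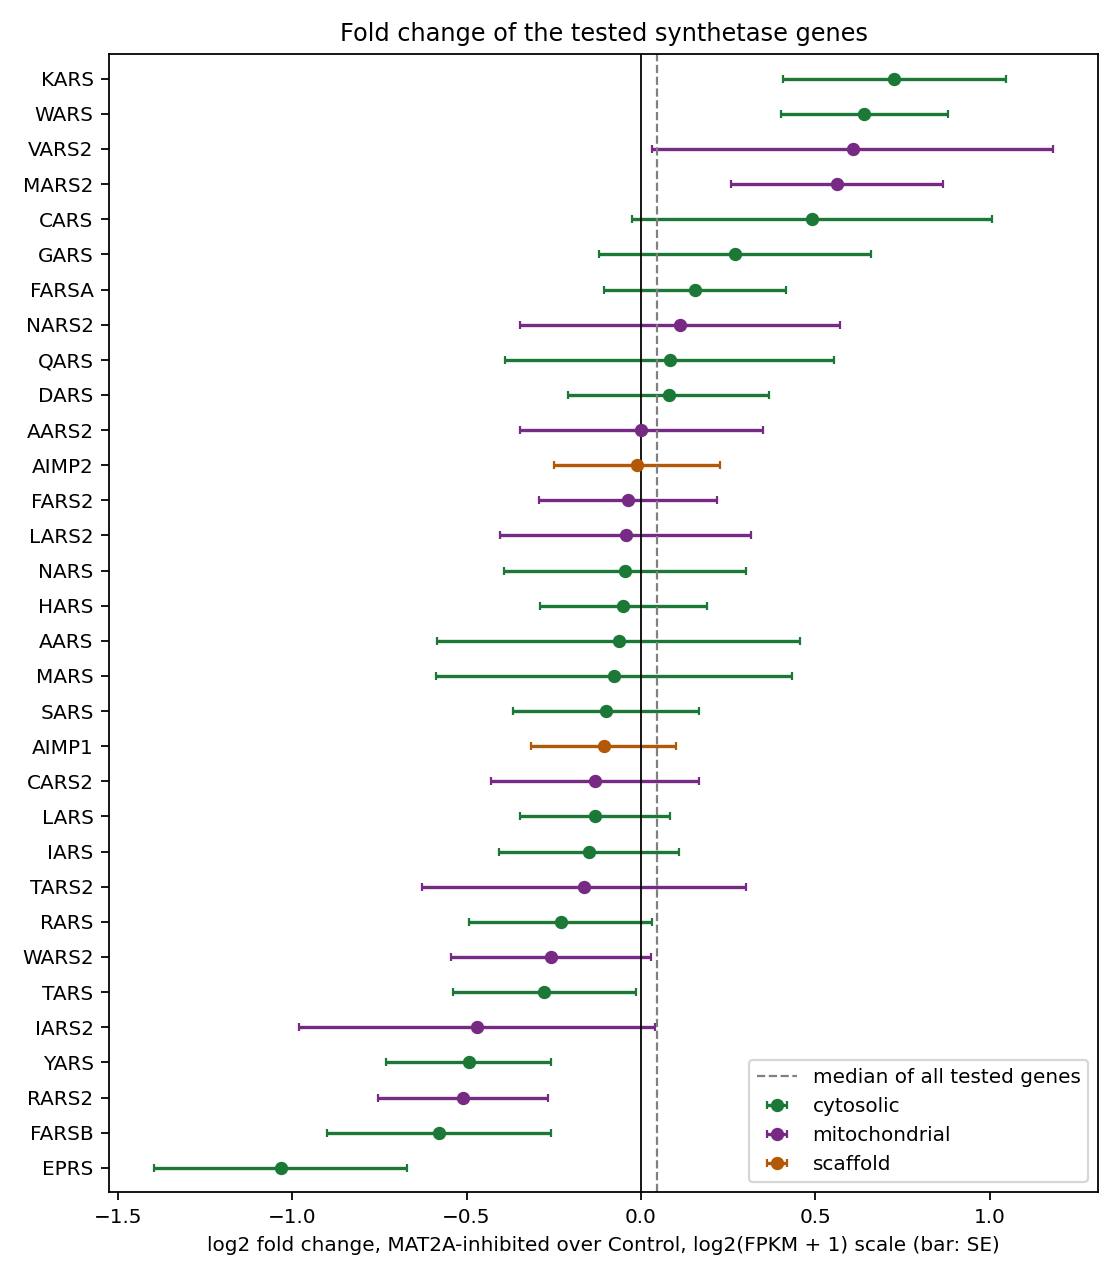
log2 fold change, MAT2A-inhibited over Control, of 32 tested members on the log2(FPKM + 1) scale, with bars of 1 SE, coloured by compartment and without SARS2. The points run from EPRS at -1.03 to KARS at 0.73, on both sides of the dashed median of all tested genes (0.045).

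By compartment, the middle of the fold changes lay near 0. Of 19 cytosolic synthetases tested, 7 had a log2 fold change above 0, with a median of -0.064. Of 13 mitochondrial ones tested, 5 were above 0, with a median of -0.044, and without SARS2 these became 4 of 12 and -0.051. Over all genes tested 54.2% were above 0 and the median was 0.045.

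By fold of the catalytic domain, synthetases form class I and class II. Class I held 16 tested members, of which 5 were above 0 and 5 did not overlap between the groups (WARS and MARS2 higher, EPRS, RARS2 and YARS lower), with a median of -0.13. That is 31.2% above 0 and 31.2% without overlap, against 54.2% and 13.4% of all genes tested. Class II held 16 tested members, of which 7 were above 0 and 2 did not overlap (SARS2 and KARS), with a median of -0.042. Without SARS2 these were 6 and 1 of 15. EPRS, which joins both glutamate and proline, was counted in class I only. The difference between the classes was not tested. Of the 11 genes of the multisynthetase complex, 10 were tested and 3 were above 0, with a median of -0.092. Its fold changes ran from EPRS, the lowest, to KARS, the highest. EEF1E1 had no row of its own in every library and was not tested.

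Spread between embryos of 1 group differed widely among the members. The within-group SD of log2(FPKM + 1) had a median of 0.354 over the 34 tested members, against 0.399 over all genes tested. It was lowest for YARS at 0.115, FARS2 (mitochondrial phenylalanine) at 0.137 and LARS (cytosolic leucine) at 0.138. LARS had 33.4, 40.6 and 32.5 FPKM in MAT2A-inhibited morulae and 40.5, 40.4 and 35.9 FPKM in Control morulae. The widest were VARS2 at 0.852, AARS (alanine) at 0.805, MARS at 0.775 and CARS at 0.768.

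In 10 of 34 members, or 29.4%, a single embryo was more than 1.5 times above the next one, against 18.9% of all genes tested. Control morula 3 was that embryo for EPRS, MARS and IARS2, among others. MAT2A-inhibited morula 1 was it for AARS, at 58.4 FPKM, and VARS2, and MAT2A-inhibited morula 2 for CARS and KARS. MAT2A-inhibited morula 3 was it for SARS2, which entered the test only through its MAT2A-inhibited values. Control morula 2 was it for QARS (glutamine), at 64.1 FPKM. Control morula 3 was also the embryo with the most KRT8 and KRT18, and whether this bears on its synthetase values was not tested. Over the 34 tested members, MAT2A-inhibited morulae 1 to 3 were the highest embryo for 3, 6 and 3 members, and Control morulae 1 to 3 for 2, 12 and 8. The same count over all genes was not made, so these numbers have no background beside them.

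Genes that work beside the synthetases were read from 3 lists. Of 15 charging partners, which trim, proofread or deliver tRNAs, 9 were tested and none had an unadjusted p below 0.05. The smallest p among them belonged to DTD1, which removes D-amino acids from tRNA, with 66.0, 60.2 and 81.5 FPKM in MAT2A-inhibited morulae and 93.6, 78.8 and 125.5 FPKM in Control morulae (log2 fold change -0.50, unadjusted p = 0.0780, adjusted p = 0.752). DTD1 overlapped between the groups. EEF1A1, which carries charged tRNAs to the ribosome, had 2473, 1352 and 1398 FPKM in MAT2A-inhibited morulae and 1993, 1273 and 1709 FPKM in Control morulae.

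Of 12 mitochondrial charging partners, 10 were tested and 1 was higher at an unadjusted p of 0.05, where 3.70% of all genes were. TUFM, the mitochondrial elongation factor that carries charged tRNAs, had 72.7, 67.0 and 82.6 FPKM in MAT2A-inhibited morulae and 60.3, 42.8 and 51.1 FPKM in Control morulae. The groups did not overlap, with a log2 fold change of 0.53, an unadjusted p of 0.0450 and an adjusted p of 0.746. MTO1, which modifies mitochondrial tRNAs, also did not overlap, with 3.69, 3.63 and 4.99 FPKM in MAT2A-inhibited morulae and 3.59, 2.72 and 3.55 FPKM in Control morulae. Its groups were barely apart, at 3.63 against 3.59 FPKM. The limma log2 fold change of MTO1 was 0.25, with an unadjusted p of 0.419 and an adjusted p of 0.855. TUFM and MTO1, 2 of 10, compare with 13.4% of all genes without overlap. GATC, a subunit of the enzyme that makes mitochondrial glutaminyl-tRNA, had 29.5, 0 and 29.2 FPKM in MAT2A-inhibited morulae and 0, 0 and 25.2 FPKM in Control morulae, with the zeros again as listed.

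Of 26 genes of the amino acid response, 18 were tested, 7 were above 0 and the median log2 fold change was -0.17. EIF2AK3, a stress kinase of the endoplasmic reticulum that acts upstream of ATF4, had 3.38, 3.97 and 6.32 FPKM in MAT2A-inhibited morulae and 1.72, 0.435 and 3.23 FPKM in Control morulae. It alone of the 18, or 5.56% against 6.64% of all genes, passed an unadjusted p of 0.05 in limma. The groups did not overlap for EIF2AK3 and for EIF2AK1, whose values stand above, or 11.1% of 18 against 13.4% of all genes. EIF2AK1 had a log2 fold change of 1.33 with an adjusted p of 0.7495, and MAT2A-inhibited morula 1 was far above its other values. EIF2AK3 had a log2 fold change of 1.09, with an unadjusted p of 0.0451 and an adjusted p of 0.746. ATF4 had 88.6, 120.5 and 97.8 FPKM in MAT2A-inhibited morulae and 77.7, 94.2 and 98.4 FPKM in Control morulae, with overlap and a log2 fold change of 0.18. ASNS, asparagine synthetase and a well-known ATF4 target, had 28.5, 70.5 and 37.0 FPKM in MAT2A-inhibited morulae and 41.6, 34.3 and 73.1 FPKM in Control morulae, also with overlap.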

How the data were processed

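Polyadenylated RNA of 6 single bovine morulae was sequenced with a full-length low-input kit, per the labels' protocols. The submitters' processing notes name TopHat2 2.0.14, Cufflinks 2.2.1 and the build bosTau8. The authors deposited 1 gene table per library with FPKM and confidence bounds, per the file headers, and no scaling between libraries is recorded. Cufflinks identifiers show per-library assembly, which can merge neighbouring genes in 1 library alone. FPKM lay outside its own bounds in 33 of 215 member rows, so errors are the spread between embryos.

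FPKM of a symbol were summed, leaving out merged loci and rows with a status other than OK. Depth was read from the whole-fragment steps in the bounds of short unannotated loci, 100 to 300 bases long (99.7% to 99.9% whole within 0.05). Counts per gene were not recovered and no counting interval is given. No 2 libraries shared values above 0 (0.0% equal). Genes reaching 1 FPKM in at least 3 libraries entered a two-sided limma test (version 3.58.1, R 4.3.3) of log2(FPKM + 1) with a trended variance and Benjamini-Hochberg adjustment. Single values used exact permutation. Within-group SDs are on the same log2 scale. On simulated data with 200 of 7319 genes changed, in 10 runs, it found 19.9% of the changes of 2-fold. For 4-fold this was 74.3% and for 8-fold 90.2%, with 6.1 false calls per run.

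The members and lists were chosen with earlier results of these data known. Every member is counted, and 1 is not reported here by name or drawn. Values per embryo are given for members with an unadjusted p below 0.05, without overlap, listed at 0, or among the 3 highest or lowest of a compartment. MARS, AARS, LARS, SARS, QARS, the subunits FARSA and FARSB, and ASNS were named after their values were seen. Of each further list up to 3 genes of smallest p could be named, and EEF1A1, GATC, MTO1 and ATF4 were added after their values were seen. Positions are 1-based and are the span shared by all libraries. At these loci 8 members overlap another annotated gene. Alternatives were TPM, median-of-ratios and quantile scaling, a pseudocount of 0.1, no filter, a mean of at least 5 FPKM, the replicate block, no trend, array weights, the highest row of a symbol, genes listed at 0 left out, and libraries left out. The lower confidence bound in place of FPKM was added after the data were seen.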

Additional observations from a re-analysis of the deposited data

How the results depend on the processing

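No synthetase passed an adjusted p of 0.05 under any of the 19 alternatives. The count of members with an unadjusted p below 0.05 was 3, and 5 with quantile scaling, with no filter on low values and with array weights, and it was 1 to 3 when 1 embryo was left out. SARS2, which is in the count of 3, dropped out through the filter whenever a MAT2A-inhibited embryo was left out. The count was 1 without Control replicate 3, where SARS2 alone passed and no member present in both groups did. Without MAT2A-inhibited replicate 2 it was also 1, but this was FARSB (limma unadjusted p = 0.0158), not a member of the main count. KARS passed only without MAT2A-inhibited replicate 3 and QARS only without Control replicate 2, among the fits with 1 embryo left out. Among all genes, 3 passed the adjusted threshold, against 1 with no filter, 1 with a mean of at least 5 FPKM, 5 with array weights, 0 with genes listed at 0 left out, 0 without MAT2A-inhibited replicates 2 and 3 (the embryos with Y-linked transcripts), and 0 to 8 when 1 embryo was left out, 8 without Control replicate 3. With 1 embryo left out, the median log2 fold change of the cytosolic synthetases ranged from -0.208 without MAT2A-inhibited replicate 2 to 0.073 without MAT2A-inhibited replicate 3, and that of the mitochondrial ones from -0.140 to 0.025, with -0.206 without MAT2A-inhibited replicates 2 and 3 and -0.148 with a mean of at least 5 FPKM. The cause of these shifts was not tested. With array weights both medians were above 0, at 0.036 and 0.054. EPRS, WARS, KARS, RARS2, YARS, MARS2, TUFM and EIF2AK3 kept their direction under every alternative that could be fitted for them. MARS2 and EIF2AK3 have none with a mean of at least 5 FPKM. Since the groups did not overlap for any of these genes, leaving embryos out could not reverse their direction. Neither could the filter, the pseudocount, the trend, the block or the weights. Without MAT2A-inhibited replicates 2 and 3 the log2 fold change was -0.83 for EPRS and 0.42 for WARS. Over all members, 63 of 635 recomputed fold changes had the other sign, in 21 members.

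Same-numbered embryos of the groups had correlations of 0.046, 0.103 and 0.191 in their deviations from the group means. Differently numbered embryos had -0.212 to 0.102. The numbers were not taken to pair embryos in the main fit, and these values do not decide whether they do. With the replicate block, 4 members had an unadjusted p below 0.05 and 1 gene passed the adjusted threshold. FARSB had a limma unadjusted p of 0.0188 with the block, against 0.110 in the main fit. Scaling moved the median log2 fold change of all genes between -0.006 and 0.045. Simulated 2-fold changes were mostly missed at this size of study.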
